A study of Rattus norvegicus with 4 samples.

Results

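Pericytes of the rat esophagus were examined after X-ray irradiation in 4 single-cell RNA libraries, each made from the pooled tissue of 5 rats. Cells were taken as candidate pericytes where 5 marker genes (Rgs5, Kcnj8, Abcc9, Higd1b and Vtn) together reached at least 3 unique molecular identifiers (UMIs, counted RNA molecules) over at least 2 of those genes. They also had to hold no Ptprc UMI, little Krt5 and no more UMIs of the smooth muscle genes Myh11, Actg2, Mustn1 and Pln than of the markers. This rule found 3153 cells among 40724 cells that had at least 500 UMIs and at most 20% mitochondrial UMIs. The rule also asked for no UMI of the endothelial gene Pecam1, but no feature in the matrices carries that symbol, so this step removed no cell.

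All rats were male Sprague-Dawley rats aged 6 weeks. The control group received 5 sham fractions of 0 Gy and was sampled on day 7. The single-dose group received 1 fraction of 35 Gy to the esophageal region and was sampled on day 7. The fractionated groups received 5 fractions of 7 Gy, also 35 Gy in total, and were sampled on day 7 or day 14. No control was sampled on day 14, so time and treatment cannot be told apart in the comparison of the day 14 library with the control. With 1 pooled library a group there is no replicate check of any difference. Intervals below are exact 95% intervals that cover counting error only, and no p-value is given. Values for the 4 libraries are given in this order: control, single dose, then the fractionated library of day 7 and that of day 14.

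Pericytes sit on capillaries and small venules, embedded in the basement membrane that they share with the endothelium. They control vessel tone and stability, and depend on endothelial PDGF-B acting on their receptor Pdgfrb. Kcnj8 and Abcc9 encode the pore and the regulatory subunit of the KATP potassium channel that sets their membrane potential. Rgs5 shortens G protein signalling, Vtn is the adhesive glycoprotein vitronectin, and Higd1b is a hypoxia-family gene of mural cells. Ccl19 is a ligand of CCR7, the receptor that draws dendritic cells and T cells to lymphoid tissue, and is made by stromal cells that surround vessels.

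Before the gate, the libraries held 10468 to 12505 barcodes with 59805782 to 109618791 UMIs in all. Pairs of libraries shared 26 to 38 barcodes. Library composition differed widely: cells passing an epithelial gate numbered 698, 2415, 5698 and 271, and cells passing a fibroblast gate 4085, 519, 70 and 2456. The fractionated day 7 library had the most epithelial cells and the fewest fibroblasts.

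The label held for only part of the cells found by the rule. Cells were therefore divided, after these data had been seen, into 3 sets. The first set, 1477 cells, held at least 50 UMIs per 10000 of the fibroblast genes Pdgfra, Dcn, Lum, Dpt and Mfap5. The second, 734 cells, held at least 3 UMIs over at least 2 of the endothelial genes Cdh5, Egfl7, Emcn and Vwf. The remaining 942 cells are called core cells below. The fibroblast-gene set numbered 378, 159, 17 and 923 cells, the endothelial-gene set 319, 43, 20 and 352, and the core 292, 163, 89 and 398.

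**Figure D1:**
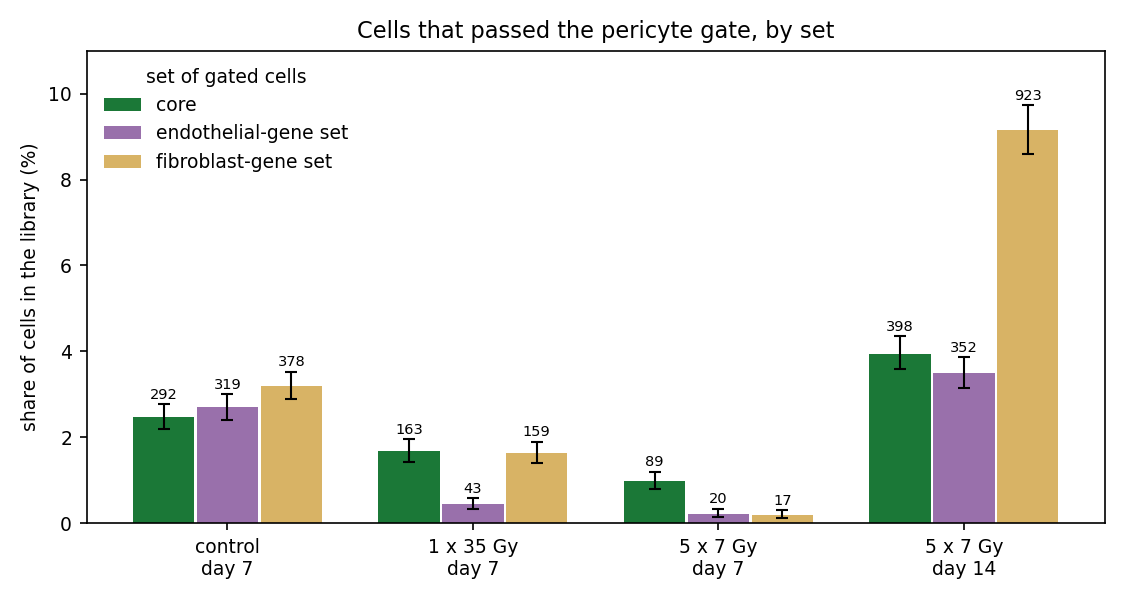
Cells found by the marker rule in each library (share of cells in the library in %, side-by-side bars by set). Error bars are exact intervals that cover counting error only, and the labels above the bars give the number of cells. The fibroblast-gene set made up 378 of 989 cells in the control and 923 of 1673 on day 14, against 17 of 126 in the fractionated day 7 library.

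The fibroblast-gene set lacked most of the pericyte programme. In the control its summed UMIs held 98.0 CPM (UMIs of a gene scaled to a total of 1000000) of Rgs5 against 1487 CPM in the core, and 71.0 CPM of Vtn against 1207 CPM. Cox4i2 and Ndufa4l2, mitochondrial complex genes enriched in pericytes and not used by the rule, stood at 50.4 and 48.8 CPM there and at 890 and 903 CPM in the core. Only 24.3% of the control fibroblast-gene cells had an Rgs5 UMI, and 13.2% had 4 or 5 of the rule's genes, against 74.0% in the core. The label "pericytes" therefore did not hold for this set, which passed mainly through Abcc9: 93.7% of its control cells had an Abcc9 UMI. Dcn, the fibroblast proteoglycan decorin, stood at 11759 CPM there and at 715 CPM in the core, a gap that the division fixed because Dcn is one of its genes.

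The endothelial-gene set carried pericyte and endothelial RNA together. In the control it held 892 CPM of Rgs5 and 489 CPM of Vtn beside 524 CPM of Cdh5, the endothelial cadherin, which is one of the genes that chose this set. The doublet caller Scrublet marked 1.88% of these control barcodes, 7.67% of the fibroblast-gene set, 1.71% of the core and 3.93% of the whole library. At fractionated day 7 it marked 15.0% of the 20 endothelial-gene barcodes and 2.25% of the library, and in the other irradiated libraries 0% and 1.70% of this set. In the control it marked fewer barcodes than the 9.45% expected at 0.8% per 1000 cells, and marked cells were kept. Whether endothelial-gene barcodes hold a pericyte with an attached endothelial cell was not tested.

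**Figure D2:**
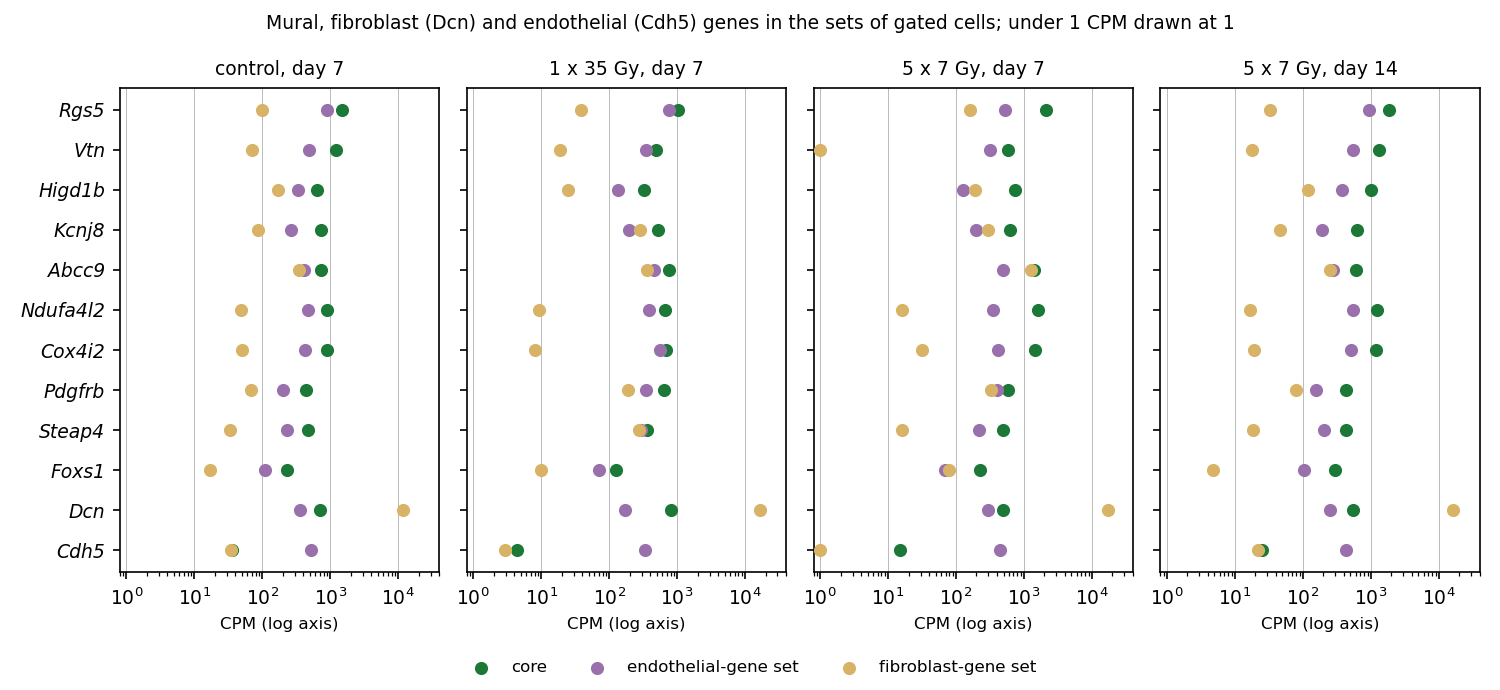
Level of each marker (CPM of summed UMIs, log scale) in the 3 sets, 1 panel per library. In the control the core lies at 1487 CPM for Rgs5 and the fibroblast-gene set at 98.0 CPM, and Dcn and Cdh5 are plotted as genes that divided the sets, so their gaps are no finding.

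Core cells expressed mural genes that the rule did not use. Pdgfrb, the PDGF-B receptor, stood at 440, 633, 581 and 425 CPM in the core and at 6.20 to 46.1 CPM in all other cells of the 4 libraries. Cox4i2 stood at 890, 693, 1465 and 1170 CPM, Steap4 (a metalloreductase) at 470, 364, 488 and 424 CPM, and Foxs1 (a forkhead factor of perivascular cells) at 230, 125, 222 and 295 CPM. Ranked by ratio to all other cells over the 4 libraries, the 12 leading genes outside the rule were Ager, Inmt, Adra2a, Cox4i2, Steap4, Pmfbp1, Thy1, Pdgfrb, Foxs1, Scn3a, Ccl19 and Agtr1a. Inmt, an indole methyltransferase, stood at 55.9, 595, 292 and 257 CPM, lowest in the control. Agtr1a, the angiotensin II receptor of vessel walls, stood at 124, 129, 88.8 and 94.3 CPM. These cells were chosen by their RNA, so their difference from other cells is a description.

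RNA of markers of other cell types was present in the core, and that of epithelial and smooth muscle markers was not low. Summed over 7 fibroblast markers it was 1931, 1519, 1306 and 1408 CPM, and over 7 blood endothelial markers 235, 35.8, 81.4 and 129 CPM. Summed over 7 epithelial markers it was 4544, 1088, 2450 and 289 CPM, highest in the control. Of the control UMIs of Krt13, 1 of these markers, 97.3% lay in 10 core cells. Smooth muscle markers gave 4254, 7348, 5399 and 6310 CPM, with all 10 markers detected in each library. They include Des and Acta2, with a UMI in 55.8% and 42.1% of control core cells. This sum cannot be read as RNA of another cell type alone. Of 6 immune markers, Ptprc was at 0 by the rule and the sum was 29.4, 175, 3.70 and 85.6 CPM. The median UMIs per core cell were 2248, 4431, 1996 and 4434. Their median mitochondrial share was 8.52%, 6.42%, 6.20% and 4.72%. Abundant RNA of monocytes and neutrophils, over 10 genes, stood at 971, 985, 33.3 and 345 CPM. The part of each of these differences in the gene values below was not tested.

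The first comparison asks how many pericytes each library held. Core cells made up 2.47% (2.20 to 2.77) of control cells, 1.67% (1.43 to 1.95) of single-dose cells, 0.980% (0.788 to 1.20) of fractionated day 7 cells and 3.95% (3.58 to 4.35) of fractionated day 14 cells. The day 7 shares were below the control by 1.48-fold (1.22 to 1.80) after the single dose and by 2.52-fold (1.98 to 3.23) after fractionation. With every cell thinned to 1000 UMIs before the rule, the core shares were 2.86%, 1.20%, 0.730% and 4.30%. The day 7 ratios to the control were then log2 -1.25 and -1.97. The endothelial-gene limit is a fixed number of UMIs, which thinned cells reach less often, so the thinned core is a different set of cells. It was 304 of 370 gated cells in the control and 408 of 456 on day 14, against 292 of 989 and 398 of 1673 unthinned. Without thinning, the day 14 share was 1.60-fold (1.37 to 1.86) above the control and 4.03-fold (3.19 to 5.13) above fractionated day 7. At day 7 the fractionated share was 1.71-fold (1.31 to 2.24) below the single dose.

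The whole rule gave the same order with wider gaps. It found 8.37% (7.88 to 8.88), 3.75% (3.38 to 4.14), 1.39% (1.16 to 1.65) and 16.6% (15.9 to 17.3) of cells. The single-dose share was 2.23-fold and the fractionated day 7 share 6.03-fold below the control, and the day 14 share was 12-fold above fractionated day 7. Among its parts, the endothelial-gene set was 6.12-fold (4.44 to 8.62) below the control after the single dose and the fibroblast-gene set 1.96-fold (1.62 to 2.37). The fibroblast-gene set was 17.1-fold (10.5 to 29.6) below the control in the fractionated day 7 library and 48.9-fold (30.4 to 84.3) above that library on day 14.

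The direction of the day 7 shares depended on the other cells in the library. Among cells that were neither epithelial nor immune, core cells made up 2.67%, 4.61%, 3.19% and 4.45%. On this base the single-dose core share was above the control, by 0.79 on the log2 scale, and so was the fractionated day 7 share, by 0.26. The whole rule then gave 9.03%, 10.3%, 4.52% and 18.7%. This base itself held 10949, 3536, 2789 and 8935 cells, of which 4085, 519, 70 and 2456 passed the fibroblast gate. A higher core share on it cannot be told apart from fewer fibroblasts in it. Shares in a dissociated library do not count cells per tissue. Loss of pericytes cannot be told apart from gain of the epithelial and immune cells that this base leaves out.

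Set against blood endothelial cells, the core was lower in every irradiated library. There were 56.7, 26.9, 11.2 and 27.9 core cells per 100 cells of the blood endothelial gate. This was 2.11-fold (1.74 to 2.57) below the control after the single dose, 5.06-fold (3.98 to 6.50) below at fractionated day 7 and 2.03-fold (1.74 to 2.37) below on day 14. With all cells that carry endothelial genes as the base, the same ratios were 25.2, 25.0, 11.5 and 20 core cells per 100, so that the single-dose value was level with the control and the fractionated day 7 value remained the lowest.

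Many cells stood close to the limit of the rule. Cells with exactly 3 marker UMIs numbered 148, 38, 16 and 186, and cells with 4 numbered 92, 17, 13 and 181. Just outside, 213, 25, 8 and 231 cells held 2 marker UMIs over 2 genes.

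Gene levels were compared as CPM of the UMIs summed over cells of 1 library. A gene that reached 20 UMIs over both libraries of a comparison was counted where its ratio was at least 2-fold. In the core against the control, 8.68% of 6840 genes were higher and 12% lower after the single dose. At fractionated day 7, 11.1% of 5830 genes were higher and 14.5% lower. On day 14, 8.64% of 8210 genes were higher and 5.25% lower. From fractionated day 7 to day 14, 17.8% of 7541 genes were higher and 10.00% lower, and between the day 7 irradiated libraries 10.9% of 5436 genes were higher and 14.2% lower in the fractionated one. The median log2 ratio over all genes tested lay between -0.03 and 0.15 in the 5 comparisons. Counts of list members given below are to be set beside these shares of all genes, and several lie near them. The comparisons with the control share that library, so their values are set side by side and not counted against each other.

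For all cells found by the rule, the shares higher and lower were 7.26% and 15.4% for the single dose against the control, 14.9% and 13.2% for fractionated day 7, and 6.23% and 6.01% for day 14. They were 13.4% and 18.8% from fractionated day 7 to day 14, and 15.8% and 12.6% for fractionated day 7 against the single dose. Several leading genes of these summed cells are fibroblast genes. Grem1, a secreted BMP antagonist, stood at 0.288, 345, 19.1 and 219 CPM over all cells of the rule and at 0, 41.4, 0 and 9.67 CPM in the core. Lcn2, the iron-binding lipocalin 2, stood at 41.7, 3065, 47.7 and 37.6 CPM over all cells of the rule and at 5.89, 222, 18.5 and 6.29 CPM in the core. The results below are therefore those of the core, in which the mixture with fibroblast RNA is smaller.

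The markers themselves differed between libraries. Rgs5 stood at 1487, 1029, 2135 and 1832 CPM in the core, lowest after the single dose. Kcnj8 stood at 737, 528, 622 and 632 CPM and its partner Abcc9 at 742, 766, 1414 and 606 CPM. Vtn stood at 1207, 484, 577 and 1327 CPM, low in both irradiated day 7 libraries. Higd1b stood at 646, 330, 748 and 1008 CPM. These genes chose the cells, so their levels cannot be read as a change in pericytes.

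Of 28 other mural identity genes, 26 could be measured after the single dose, of which 2 were at least 2-fold higher and 6 lower, with a median log2 ratio of -0.36. Gucy1a1, a subunit of the nitric oxide receptor guanylate cyclase, stood at 356, 129, 511 and 457 CPM (log2 -1.47, -1.78 to -1.16). It was low in the single-dose library alone, and so was the sodium pump subunit Atp1b2 at 151, 58.2, 366 and 137 CPM. Rgs4, a relative of Rgs5, stood at 481, 173, 266 and 540 CPM and was low in both day 7 irradiated libraries.

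A few receptors were instead higher after the single dose. Ednrb, an endothelin receptor, stood at 202, 722, 185 and 166 CPM and was higher in that library alone (log2 1.84, 1.61 to 2.07). Adra2a, an alpha-2 adrenergic receptor, stood at 50, 241, 204 and 96.2 CPM (log2 2.27, 1.82 to 2.74 after the single dose and log2 2.02, 1.45 to 2.60 at fractionated day 7). Ramp1, which pairs with the calcitonin receptor-like receptor to bind the vasodilator CGRP, stood at 102, 266, 400 and 205 CPM (log2 1.38, 1.05 to 1.73 and log2 1.97, 1.57 to 2.37). Adra2a and Ramp1 were thus higher in both day 7 irradiated libraries, with day 14 values between those and the control.

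At fractionated day 7, 6 of 25 measured identity genes were at least 2-fold higher and 2 lower, with a median of 0.40. Cd248, the endosialin of activated perivascular cells, stood at 53.9, 70.5, 244 and 89.0 CPM (log2 2.18, 1.64 to 2.72), and Ednra, the other endothelin receptor, at 115, 143, 315 and 141 CPM (log2 1.45, 1.03 to 1.87). On day 14, 1 of 28 was higher and none lower, with a median of 0.25. That gene was Enpep, an angiotensin-cleaving aminopeptidase, at 47.1, 57.1, 144 and 99.1 CPM (log2 1.07, 0.61 to 1.56).

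Among 24 ion channel and cyclic nucleotide genes the median was -0.01 over 20 measured after the single dose (6 higher, 5 lower), 0.66 over 17 at fractionated day 7 (6 higher, 1 lower) and 0.48 over 18 on day 14 (4 higher, 1 lower). Trpc6, a receptor-operated cation channel, stood at 24.5, 63.8, 85.1 and 54.2 CPM and was higher in each irradiated library (log2 1.38, 0.68 to 2.12, log2 1.80, 0.91 to 2.67 and log2 1.14, 0.51 to 1.83). Pde3a, a phosphodiesterase that breaks down cyclic AMP, stood at 31.4, 66.0, 62.9 and 95.7 CPM. It was lowest in the control.

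Contractile genes moved less. Their median was 0.32 over 22 genes after the single dose (3 higher, 2 lower), 0.03 over 21 at fractionated day 7 (5 higher, 1 lower) and 0.34 over 22 on day 14 (3 higher, none lower). Des, the muscle intermediate filament desmin, stood at 587, 1768, 888 and 906 CPM, highest after the single dose (log2 1.59, 1.46 to 1.73). Acta2, smooth muscle actin, stood at 358, 553, 810 and 436 CPM (log2 1.18, 0.93 to 1.42 at fractionated day 7). Both are also smooth muscle genes, and their levels in the smooth muscle gate were above those of the core where they were higher.

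In the PDGF, Notch and angiopoietin list, medians were -0.22, -0.04 and -0.07 in the 3 comparisons with the control. Angpt2, the Tie2 ligand that loosens vessels, stood at 51.0, 141, 200 and 117 CPM and was higher in each irradiated library (log2 1.47, 0.99 to 1.96, log2 1.97, 1.39 to 2.55 and log2 1.20, 0.76 to 1.66). The Notch targets Nrarp, at 343, 82.8, 115 and 312 CPM, and Hes1, at 213, 79.5, 99.9 and 349 CPM, were low in both day 7 irradiated libraries and near or above the control on day 14. Notch3, the receptor through which endothelial cells keep mural cells differentiated, stood at 26.5, 34.7, 70.3 and 46.4 CPM, highest at fractionated day 7 (log2 1.41, 0.48 to 2.31).

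Ccl19 was uneven between libraries and between core cells. It stood at 81.4, 1935, 81.4 and 217 CPM, from 83, 1729, 22 and 448 UMIs, and was higher after the single dose (log2 4.57, 4.25 to 4.91) and on day 14 (log2 1.41, 1.07 to 1.77). At fractionated day 7 it stood level with the control (log2 0.00, -0.75 to 0.69). Cells with a Ccl19 UMI numbered 39 of 292, 44 of 163, 9 of 89 and 90 of 398. Cells with at least 10 UMIs numbered 0, 14, 1 and 14, so the single-dose excess lay in few cells.

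After every cell was thinned to 1000 UMIs, 6.61% (3.90 to 10.4), 16.8% (11.3 to 23.6), 5.48% (1.51 to 13.4) and 9.84% (7.02 to 13.3) of core cells held a Ccl19 UMI. Thinning left out 35, 8, 16 and 22 shallower cells. The unthinned shares were 13.4%, 27.0%, 10.1% and 22.6%. In epithelial cells, which should lack the gene, the thinned share was 0%, 0.0844%, 0.0904% and 0%. The median UMI count of these epithelial cells was 12301, 17860, 6728 and 11772, and that of the core cells 2664, 4638, 2604 and 4601. The core shares were above these in every library.

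A single cell of the single-dose library held 628 of its 1729 Ccl19 UMIs, and the top 10 cells held 91.0%. Without the highest cell of each library the levels were 74.2, 1255, 39.6 and 200 CPM. The single-dose ratio was then log2 4.08 (3.74 to 4.44) and the day 14 ratio 1.43 (1.07 to 1.80), so both excesses were kept. The fractionated day 7 ratio became -0.91 (-2.02 to 0.05) without its 1 rich cell.

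**Figure D3:**
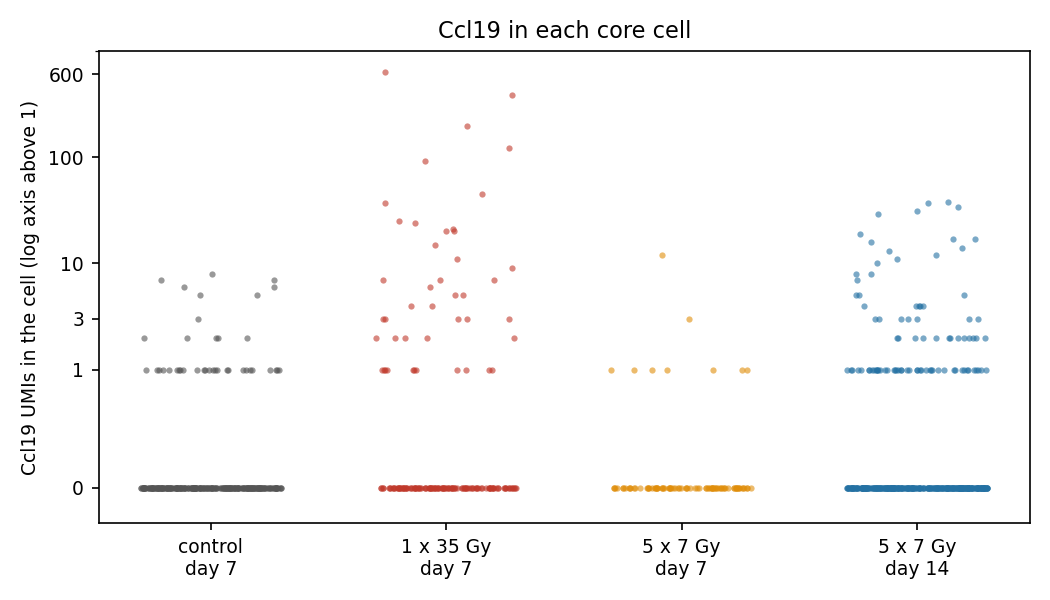
Ccl19 UMIs per core cell in each library (y axis, UMIs, log scale above 1; each point is 1 cell, spread sideways for legibility). Cells with at least 10 UMIs number 14 of 163 after the single dose and 14 of 398 on day 14, against 0 of 292 in the control.

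Levels of Ccl19 are given here for 4 other gated classes. The level in the immune gate is not given, so these values do not show Ccl19 to be particular to the core. In the blood endothelial gate it stood at 0.668 to 2.55 CPM and in the epithelial gate at 0.118 to 0.978 CPM. The smooth muscle gate held 7.75, 2.38, 79.1 and 5.21 CPM and the fibroblast gate 1.11, 1.83, 67.6 and 1.35 CPM. At fractionated day 7 both were thus near the 81.4 CPM of the core, and the core did not stand apart there. The fibroblast-gene set of the single-dose library held 211 CPM.

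Core cells rich in Ccl19 differed from those without it in other genes too. In the single-dose library, 28 cells with at least 3 Ccl19 UMIs (median 7685 UMIs) were set beside 119 cells with none (median 4042 UMIs). Ccl7, a monocyte chemokine, stood at 2744 against 357 CPM, Il33, an alarmin of stromal cells, at 325 against 30.9 CPM and Fn1, fibronectin, at 416 against 54.9 CPM. Dpt, a fibroblast gene used to define the core, stood at 696 against 105 CPM. Rgs5 was lower in the rich cells, at 606 against 1252 CPM, and Ndufa4l2 at 244 against 876 CPM. At least 2-fold higher in the rich cells were 4.72% of 4257 genes, and 8.64% were lower. On day 14, 32 rich cells (median 7227 UMIs) were set beside 308 without Ccl19 (median 3972 UMIs). The genes ranked first by interval were of MHC class II, with Cd74 at 983 against 148 CPM, RT1-Db1 at 692 against 65.2 CPM and RT1-Da at 357 against 52.4 CPM. They lay in 12, 6 and 4 of the rich cells, and RT1-Ba, at 280 against 20.2 CPM, in 1. Fcer1g, a receptor chain of myeloid cells, stood at 55.3 against 8.06 CPM, in 3 rich cells. Nkain4, a sodium pump-interacting protein, stood at 199 against 26.2 CPM, Vsnl1, a calcium sensor, at 111 against 17.5 CPM and Steap4 at 107 against 482 CPM. Such cells were picked by a measured gene within 1 library, so these are descriptions with no second sample.

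The inflammatory chemokines and cytokines showed opposite values in the day 7 irradiated libraries. After the single dose 13 of 19 measured members were at least 2-fold above the control and 3 below, with a median log2 ratio of 2.57. At fractionated day 7 none of 10 was above and 9 were below, with a median of -2.90. Set against each other at day 7, all 17 measured members were lower in the fractionated library, with a median of -4.23. On day 14 the median against the control was -0.03, with 4 of 16 higher and 4 lower.

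Ccl7 stood at 142, 1153, 0 and 150 CPM. It was higher after the single dose (log2 3.02, 2.77 to 3.28), seen in 62 of 163 cells, and was at least 12.8-fold lower at fractionated day 7, where 89 cells held no UMI, taking a floor of 3 UMIs for the library. Ccl2, its close relative, stood at 1173, 1978, 92.5 and 815 CPM (log2 0.75, 0.65 to 0.86 and log2 -3.66, -4.30 to -3.10). Cxcl1, a neutrophil chemokine, stood at 2124, 1436, 0 and 1349 CPM and was at least 191-fold lower at fractionated day 7 with the same floor. Il6, the acute phase cytokine, stood at 40.2, 233, 7.40 and 100 CPM (log2 2.53, 2.04 to 3.05). Csf3, the granulocyte growth factor, was found almost only after the single dose, at 0, 235, 0 and 0.484 CPM, in 17 cells of which 1 held 31.9% of the UMIs. Cxcl3 at 1.96, 247, 0 and 13.5 CPM came from 3 single-dose cells, 1 with 68.8% of its UMIs. Cxcl10, an interferon-induced T cell chemokine, was low in each irradiated library, at 474, 49.2, 22.2 and 200 CPM.

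Other cell classes were compared over the same list. Summed over the list, the core stood at 4233, 6243, 226 and 2930 CPM, the fibroblast gate at 5405, 15283, 992 and 4527 CPM and the smooth muscle gate at 698, 1096, 26.4 and 727 CPM. Epithelial cells stood at 772, 273, 59.1 and 859 CPM, so their single-dose value lay below the control, unlike that of the core. The fractionated day 7 library was lowest in all 4 classes. It was also lowest in these classes for the stress genes described below. The part of handling in the chemokine values was not tested. Csf3 and Il11 after the single dose did not pass the free RNA rule. Csf3 was highest in blood endothelial cells and Il11 in fibroblasts. The rule takes other gated classes of at least 100 cells, in the library where the gene is higher. It asks that the core hold at least 0.5 times the highest level of any such class. At fractionated day 7 the fibroblast gate held 70 cells, so fibroblasts were not compared there.

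NF-kB feedback genes were unequal. Sod2, the mitochondrial superoxide dismutase, stood at 378, 4186, 163 and 335 CPM and was higher after the single dose (log2 3.47, 3.32 to 3.63), with a UMI in 146 of 163 cells. Single-dose fibroblasts held 3842 CPM of Sod2 against 948 CPM in control ones, and blood endothelial cells 2642 against 430 CPM. Nfkb1, a subunit of the factor, stood at 36.3, 162, 70.3 and 44.0 CPM (log2 2.16, 1.63 to 2.72). Nfkbia, its inhibitor, stood at 1005, 372, 48.1 and 1024 CPM and Irf1 at 665, 15.7, 11.1 and 777 CPM, both low in the day 7 irradiated libraries and level with the control on day 14. The list's median was 0.19 over 15 genes after the single dose (5 higher, 4 lower), -3.09 over 12 at fractionated day 7 (1 higher, 8 lower) and 0.04 over 17 on day 14 (none at least 2-fold). Counting only members that passed the free RNA rule, the fractionated day 7 median became 0.29.

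Genes induced by p53, the transcription factor activated by DNA damage, were higher on day 14. Of 24 measured targets, 13 were at least 2-fold above the control and 1 below, with a median log2 ratio of 1.24. After the single dose 6 of 18 were higher and 7 lower (median 0.15), and at fractionated day 7, 8 of 18 were higher and 3 lower (median 0.60).

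Cdkn1a, the cell cycle inhibitor p21, stood at 165, 275, 359 and 809 CPM (log2 0.74, 0.45 to 1.03, log2 1.12, 0.75 to 1.49 and log2 2.30, 2.07 to 2.53). Aen, an apoptosis-linked nuclease, stood at 4.90, 67.2, 62.9 and 92.4 CPM, in 5 of 292, 44 of 163, 13 of 89 and 122 of 398 cells. Ccng1, cyclin G1, stood at 43.2, 173, 226 and 237 CPM (log2 2.01, 1.52 to 2.52, log2 2.39, 1.80 to 2.98 and log2 2.46, 2.01 to 2.94). These 3 targets were lowest in the control and highest on day 14. The ordering was shared by Ephx1, epoxide hydrolase, at 20.6, 53.7, 99.9 and 188 CPM (log2 3.19, 2.56 to 3.90).

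Mgmt, which removes alkyl groups from guanine in DNA and was among the leading day 14 genes, stood at 29.4, 96.3, 167 and 420 CPM (log2 3.83, 3.31 to 4.41), in 24 of 292 control cells and 217 of 398 day 14 cells. Blood endothelial cells held a like day 14 level of Mgmt, 419 CPM, and fibroblasts 129 CPM. Gdf15, a stress-induced cytokine, stood at 11.8, 5.60, 3.70 and 106 CPM and was high on day 14 alone (log2 3.17, 2.34 to 4.14), in 103 of 398 cells. Tp53inp1, a p53 cofactor, had no UMI in the control and stood at 4.48, 7.40 and 24.2 CPM in the irradiated libraries. On day 14 it was at least 8.22-fold above the control, taking a floor of 3 UMIs.

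Some targets went the other way at day 7. Btg2, an immediate early p53 target, stood at 2077, 244, 40.7 and 2517 CPM and Plk3 at 134, 22.4, 7.40 and 101 CPM. Both also respond to tissue dissociation, and their values follow the stress genes described below. Perp, a target that is also an epithelial junction gene, stood at 732, 217, 555 and 34.8 CPM, lowest on day 14 (log2 -4.39, -4.76 to -4.04) as the epithelial markers were.

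Summed over the p53 list the core stood at 4235, 2240, 3153 and 6704 CPM, blood endothelial cells at 4246, 3332, 3143 and 8133 CPM and fibroblasts at 4447, 2128, 1658 and 6598 CPM. The day 14 library was highest in these 3 classes. In epithelial cells the sums were 4808, 3180, 3227 and 4208 CPM, highest in the control. Btg2 and Perp, described above, made up much of the control core sum. Btg2 follows the stress genes and Perp the epithelial markers, and their part in the order of these sums was not tested. Among senescence-linked genes other than Cdkn1a, Igfbp3 stood at 60.8, 10.1, 14.8 and 37.2 CPM and Igfbp6 at 484, 191, 426 and 771 CPM. The list's median was 0.37, -0.18 and 0.39 in the 3 comparisons with the control.

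**Figure D4:**
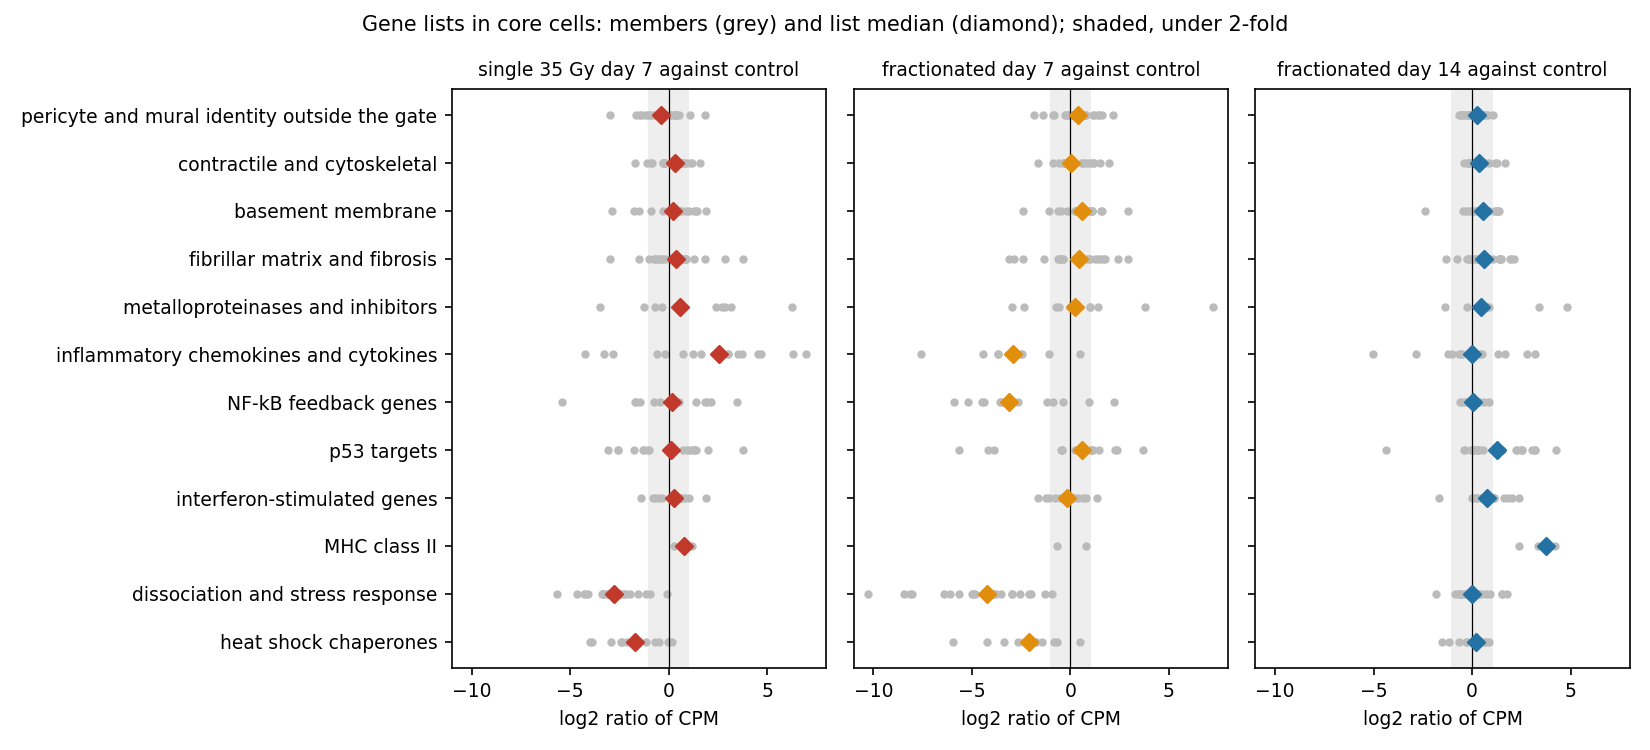
Log2 ratio of CPM in core cells for the members of each gene list (grey points) and their median (diamonds; none for lists with under 3 measured members), for each irradiated library against the control. The inflammatory chemokine median lies at 2.57 after the single dose and at -2.90 at fractionated day 7, and the p53 target median at 1.24 on day 14. Of the members behind these chemokine medians, 4 of 19 and 4 of 10 rest on a floor of 3 UMIs.

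Basement membrane genes had medians above 0 in the irradiated libraries. Against the control 5 of 20 were at least 2-fold higher and 3 lower after the single dose (median 0.24), 7 of 20 and 2 at fractionated day 7 (median 0.58) and 5 of 22 and 1 on day 14 (median 0.57). Col4a1, a chain of the collagen IV network that encloses pericytes, stood at 1252, 2618, 3656 and 3143 CPM (log2 1.06, 0.97 to 1.16, log2 1.55, 1.43 to 1.67 and log2 1.33, 1.24 to 1.42). Col18a1, the heparan sulfate collagen that yields endostatin, stood at 141, 525, 1058 and 362 CPM, highest at fractionated day 7 (log2 2.91, 2.61 to 3.20). Both were lowest in the control. Col15a1, the related collagen XV, went the other way at 99.1, 13.4, 18.5 and 18.9 CPM, and it did not pass the free RNA rule because fibroblasts held more.

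Fibrillar matrix genes had medians of 0.36 over 27 genes (4 higher, 2 lower), 0.46 over 25 (7 higher, 4 lower) and 0.61 over 27 (9 higher, 1 lower). Tnc, the injury-induced matrix protein tenascin C, stood at 40.2, 561, 303 and 108 CPM, with the highest value after the single dose (log2 3.80, 3.34 to 4.30) and 75 of 163 cells positive. Col12a1, a fibril-associated collagen, stood at 36.3, 130, 192 and 156 CPM (log2 1.84, 1.29 to 2.41, log2 2.41, 1.77 to 3.06 and log2 2.11, 1.61 to 2.64). Postn, periostin, stood at 44.1, 5.60, 148 and 57.5 CPM and was lowest after the single dose, where 3 cells held its UMIs. Col6a1 and Col5a1 were highest on day 14, at 126, 198, 96.2 and 341 CPM and 26.5, 33.6, 37.0 and 101 CPM.

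Aebp1, a secreted collagen-binding protein, was among the leading single-dose genes at 157, 1942, 533 and 385 CPM (log2 3.63, 3.39 to 3.87), with a UMI in 151 of 163 cells. The fibroblast gate stood at 532, 766, 1070 and 855 CPM of Aebp1, so only after the single dose did the core hold more than fibroblasts. Pi15, a secreted protease inhibitor, stood at 0.981, 79.5, 7.40 and 4.35 CPM, high in the single-dose core alone. The zinc importer Slc39a14 stood at 3.92, 147, 59.2 and 8.70 CPM, in 70 of 163 single-dose cells.

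Among matrix proteases, Mmp9, gelatinase B, stood at 0.981, 76.1, 148 and 27.6 CPM, from 1 control UMI, 68, 40 and 57. It was higher after the single dose (log2 6.28, 3.75 to 11.60) and at fractionated day 7 (log2 7.24, 4.68 to 12.58), with wide intervals because the control held 1 UMI. Mmp9 UMIs lay in 17, 9 and 11 irradiated cells, and 1 cell held 23.5%, 47.5% and 40.4% of them. In the fibroblast, smooth muscle and blood endothelial gates Mmp9 did not pass 8.83 CPM in any library. The levels of Mmp9 in the epithelial and immune gates are not given here, so the values do not show Mmp9 to be particular to the core. The part of RNA from those cells was not tested.

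Mmp2, gelatinase A, stood at 52.0, 340, 722 and 546 CPM and was higher in each irradiated library (log2 2.71, 2.29 to 3.16, log2 3.80, 3.35 to 4.26 and log2 3.39, 3.0 to 3.82), with fibroblasts at 619, 1973, 3902 and 1630 CPM. Its inhibitor Timp1 stood at 435, 3224, 1166 and 568 CPM, highest after the single dose (log2 2.89, 2.74 to 3.04). Timp3, the matrix-bound inhibitor that pericytes supply, stood at 326, 204, 215 and 519 CPM. Adamts9, which cleaves versican, was high after the single dose alone at 20.6, 186, 22.2 and 28.5 CPM.

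Thy1, a surface glycoprotein of activated stromal and mural cells, stood at 30.4, 135, 370 and 187 CPM and was highest at fractionated day 7 (log2 3.61, 3.01 to 4.24), in 35 of 89 cells against 19 of 292 in the control. The other classes held 0 to 34.5 CPM in that library, so the core held the highest level of Thy1 among the classes compared. Wnt5a, a noncanonical Wnt ligand, stood at 6.87, 34.7, 115 and 26.1 CPM (log2 4.06, 2.85 to 5.49), and Tnnt2, cardiac troponin T, at 1.96, 15.7, 115 and 27.1 CPM (log2 5.87, 3.90 to 8.98). Each was highest in the fractionated day 7 core and nearer the control on day 14.

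**Figure D5:**
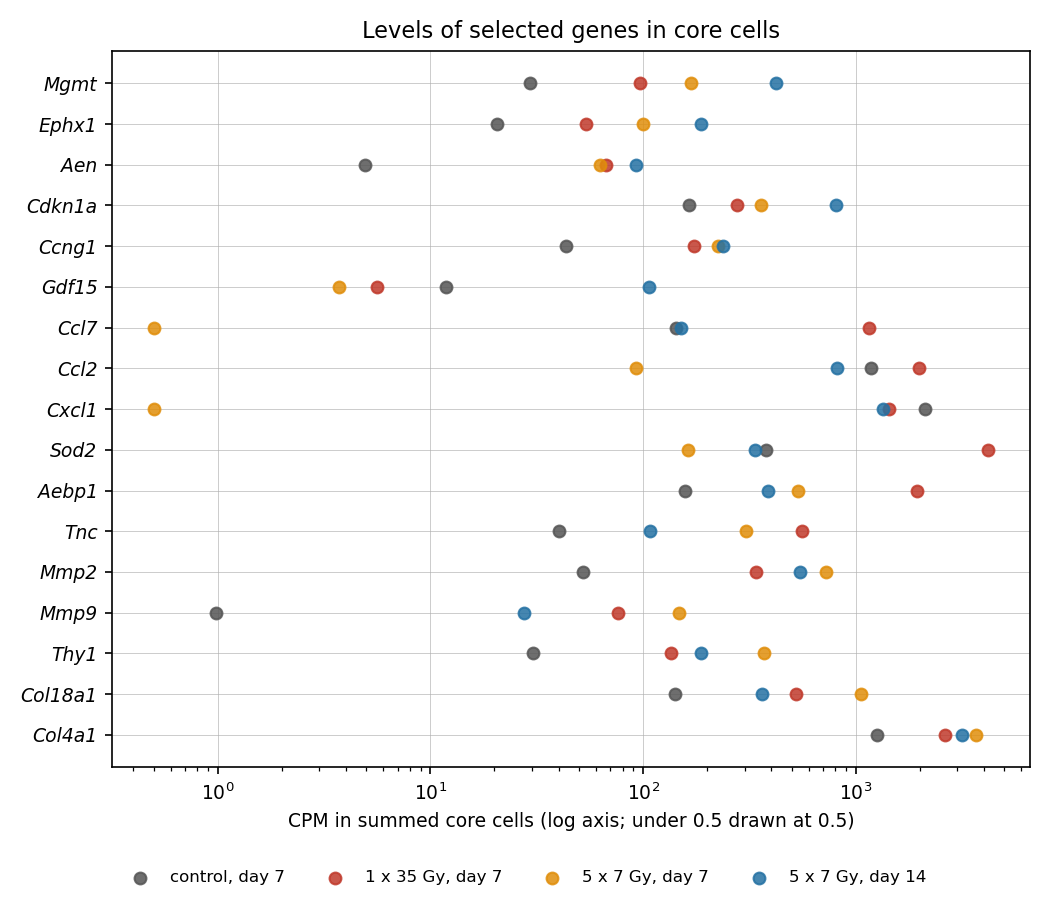
Level in core cells (CPM of summed UMIs, log scale) of selected genes in the 4 libraries (points; values under 0.5 are drawn at 0.5). Cdkn1a, Ccng1, Ephx1 and Mgmt are lowest in the control and highest on day 14, whereas Tnc and Aebp1 are highest after the single dose and Thy1 at fractionated day 7.

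The TGF-beta and BMP list had medians of -0.64 over 24 genes after the single dose (3 higher, 10 lower), -0.77 over 21 at fractionated day 7 (4 higher, 10 lower) and 0.23 over 25 on day 14 (2 higher, 1 lower). Bmp2, a BMP ligand, stood at 88.3, 11.2, 37.0 and 97.7 CPM and Id4, a BMP target, at 198, 81.7, 37.0 and 232 CPM. Both were low in the day 7 irradiated libraries. Inhba, the activin A subunit, was highest after the single dose at 2.94, 51.5, 3.70 and 22.7 CPM (log2 4.13, 2.49 to 6.46). The single-dose median turned to 0.13 with a mitochondrial limit of 10%, to 0.18 in core cells with no endothelial UMI and to 0.24 with at least 50 UMIs per gene, so its direction depended on these settings.

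Of the complement genes, C1r and C1s, the proteases of the first complement component, stood at 151, 720, 496 and 324 CPM and 35.3, 260, 74.0 and 93.8 CPM. Serping1, their inhibitor, stood at 208, 647, 644 and 298 CPM. All 3 were highest or level with the highest after the single dose and lowest in the control, and fibroblasts held more of each after the single dose.

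MHC class II genes, which present antigen to helper T cells and are not a usual product of pericytes, stood higher on day 14. All 5 measured members were at least 2-fold above the control, with a median of 3.77. Cd74, the invariant chain, stood at 25.5, 43.6, 44.4 and 256 CPM, and 1 day 14 cell held 47.9% of its UMIs there. RT1-Db1, a class II beta chain, stood at 7.85, 17.9, 18.5 and 145 CPM, with 60.7% of day 14 UMIs in 1 cell. Immune cells held 12296 CPM of Cd74 on day 14, against 56.0 CPM in the smooth muscle gate and 46.2 CPM in the blood endothelial gate. None of the 5 passed the free RNA rule. The part of immune RNA in these values was not tested.

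Interferon-stimulated genes had a median of 0.30 over 15 genes after the single dose, -0.19 over 12 at fractionated day 7 and 0.75 over 21 on day 14 (7 higher, 1 lower). Isg15, a ubiquitin-like modifier, stood at 83.4, 132, 48.1 and 179 CPM (log2 1.10, 0.76 to 1.46), and Ifi27l2b at 233, 366, 411 and 823 CPM (log2 1.82, 1.62 to 2.02), though blood endothelial cells held more of the latter. Among MHC class I genes, whose near-identical copies make counts uncertain, RT1-CE5 stood at 23.5, 52.6, 55.5 and 94.3 CPM. The class I median was 0.07, -0.39 and 0.12.

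Cycling genes were rare in the core. The G2/M list had none of 14 genes at least 2-fold higher and 10 lower after the single dose (median -1.47), 1 of 16 higher and 4 lower at fractionated day 7 (median -0.19) and 1 of 25 higher and none lower on day 14 (median -0.30). Mki67, the proliferation antigen, stood at 58.9, 22.4, 55.5 and 42.5 CPM, in 15, 9, 7 and 31 cells. Cdk1, the mitotic kinase, stood at 15.7, 2.24, 48.1 and 33.8 CPM, in 5, 2, 5 and 21 cells, so these ratios rest on few cells. S phase genes had medians of 0.30, 0.69 and 0.45 over 10, 7 and 16 measured members.

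Mitochondrial respiration subunits had medians of 0.27, 0.44 and -0.04 over 22 genes each, with none, 1 and none at least 2-fold higher and none, none and 1 lower. Hypoxia and glycolysis genes had medians of 0.16 over 22 (1 higher, 3 lower), -0.25 over 20 (2 higher, 6 lower) and 0.17 over 24 (2 higher, 2 lower). The antioxidant list had medians of -0.13 over 19 (4 higher, 5 lower), 0.07 over 18 (2 higher, 2 lower) and 0.22 over 20 (1 higher, 3 lower). Within it the metallothionein gene Mt1 stood at 230, 892, 130 and 373 CPM, highest after the single dose (log2 1.95, 1.74 to 2.17). Nqo1, a quinone reductase and NRF2 target, stood at 147, 62.7, 181 and 55.6 CPM. With every cell weighted equally its ratio to the control turned to log2 0.31 after the single dose and 0.33 on day 14.

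Immediate early genes differed widely between libraries. Of 23 measured dissociation and stress genes, 21 were at least 2-fold lower after the single dose (median -2.76) and 22 at fractionated day 7 (median -4.23), with none higher in either. On day 14, 3 of 26 were higher and 1 lower, with a median of 0 to 2 decimals. Fos, an AP-1 subunit, stood at 9017, 469, 7.40 and 12345 CPM, Jun at 5750, 313, 22.2 and 5752 CPM and Atf3 at 3106, 60.4, 0 and 3430 CPM. Heat shock chaperones followed the same order, with medians of -1.70, -2.08 and 0.21, and Hspa1b, which has a near-identical copy, stood at 4572, 290, 74.0 and 4507 CPM.

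The same order was present in other classes of the same libraries. Summed over the stress list, the core stood at 38781, 4400, 677 and 41588 CPM, smooth muscle cells at 50056, 4649, 814 and 42440 CPM, blood endothelial cells at 36372, 3473, 1599 and 36181 CPM and epithelial cells at 23215, 2317, 652 and 20743 CPM. The control and day 14 libraries were thus high and both irradiated day 7 libraries low in each class. Tissue was stored and shipped before dissociation, and differences in handling between libraries cannot be told apart from treatment. Irf1, Btg2 and Nfkbia, described above, followed the same order of libraries. Nrarp, Hes1, Bmp2, Id4, Plk3, Rgs4, Vtn and Cxcl10, among others, were also lower in both irradiated day 7 libraries than in the control and day 14 ones. The part of handling in these values was not tested.

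Several genes far below the control on day 14 were keratinocyte genes held largely by single control barcodes. Cnfn, cornifelin of the cornified envelope, stood at 1075, 188, 207 and 1.93 CPM, and 1 of 292 control cells held 87.4% of its control UMIs. Slpi, a protease inhibitor of epithelia, stood at 863, 196, 11.1 and 4.35 CPM with 92.2% in 1 control cell, and S100a7l2 at 1029, 54.8, 181 and 17.9 CPM with 86.2% in 1 cell. Krtdap, of differentiating keratinocytes, stood at 1254, 366, 2779 and 37.2 CPM with 45.6% in 1 control cell. Leaving out the highest cell of each gene kept all 4 at least 2-fold below the control on day 14, whereas the single-dose ratio of Slpi turned from -2.14 to 0.85. These values move with the epithelial marker sums of the core given above, and their part in the result was not tested.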

How the data were processed

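RNA of single esophageal cells was counted in 4 libraries, each pooled from 5 rats (per the labels). The deposited values are whole-number UMI counts per gene and cell that the authors made with Cell Ranger 5.0.0 on mRatBN7.2 (rn7), per the submitters' processing notes. Which annotation named the genes was not stated in these sources.

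Cells were kept at 500 or more UMIs and at most 20% mitochondrial UMIs, then gated as the report says. The gated cells, and the core cells within them, were summed per library and given as CPM, counts scaled to the same total in each library. Barcodes marked by Scrublet were kept. Each ratio has an exact 95% interval from a binomial split of the summed UMIs. It covers counting error only, because 1 pooled library stands for each group. No p-value, edgeR fit or other test across samples could be made, and rats within a pool cannot be told apart. A gene was measured at 20 or more UMIs over the pair compared and counted as higher or lower at 2-fold. A library at 0 was set to a floor of 3 UMIs.

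Named genes are the gate's markers, 8 higher and 8 lower per comparison ranked by the interval bound nearest to no change, up to 4 per list over 25 lists, and 12 leading genes against other cells. Genes compared within the core by their Ccl19 UMIs, the 3 sets of gated cells and the core itself were chosen after their values were seen. The members and lists were chosen with earlier results of these data known. Python 3.11.15, numpy 2.4.6, scipy 1.17.1, pandas 2.3.3, scanpy 1.11.5, anndata 0.12.19 and matplotlib 3.10.9 were used, and the counting was tested on simulated data. Simulated core totals had no spread between cells. Of unchanged genes, 2.55% were counted as 2-fold apart for the single dose against the control and 6.66% for fractionated day 7. The share was 2.56% for day 14 against the control and 9.16% for day 14 against fractionated day 7. Between the day 7 irradiated libraries it was 6.36%.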

Additional observations from a re-analysis of the deposited data

How the results depend on the processing

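Each group is 1 pooled library, and none was left out. No paired analysis was possible because each group has 1 library. All shares here are log2 ratios of the cell share, and all counts are genes at least 2-fold apart. Comparisons are the single dose (1), fractionated day 7 (2) and fractionated day 14 (3) each against the control, fractionated day 14 against day 7 (4) and fractionated against single dose at day 7 (5). Alternatives for the core, for cells without Cdh5, Cldn5 and Tie1, for the wider endothelial base and for leaving out each gene's highest cell were chosen after seeing the data.

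The gate's share was -1.16, -2.59, 0.99, 3.58 and -1.43. It became -1.77, -2.32, 0.79, 3.11 and -0.55 with Pdgfra and Krt5 at 0, and in comparison 3 1.14 with a 10% mitochondrial limit. Thinned to 1000 UMIs it was -1.99, 0.47, 2.46 and -0.69 in comparisons 2 to 5. Among cells neither epithelial nor immune it was 0.19, -1.0 and 2.05 in comparisons 1, 2 and 4, a reversal in the first. Without Cdh5, Cldn5 or Tie1 UMIs it was -0.52, -1.99, 1.18 and 3.17 in comparisons 1 to 4. Per endothelial cell the ratios were -1.68, -3.60, -0.71, 2.89 and -1.92. They became -2.29, -3.32, -0.90, 2.41 and -1.02 with Pdgfra and Krt5 at 0, and -1.47 in comparison 1 with 5 marker UMIs. Comparison 3 gave -0.83 from 1000 UMIs a cell. Thinning gave -0.88, -2.50, 1.74 and -1.62 in comparisons 1, 2, 4 and 5. The wider endothelial base gave -0.61, -2.39, -0.02 and 2.37, and the Cdh5 rule -0.90, -2.81, -0.47 and 2.34, in comparisons 1 to 4.

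The core's share was -0.56, -1.33, 0.68 and 2.01 in comparisons 1 to 4. It was -0.20 and 1.04 in comparisons 1 and 3 at 10% mitochondrial UMIs, -1.25, -1.97 and 2.56 in 1, 2 and 4 when thinned, and 0.79, 0.26 and 0.48 there among cells neither epithelial nor immune, which reversed the first and second. Per cell of the wider endothelial base it was -0.01, -1.13, -0.33 and 0.80. It was -0.23 in comparison 1 without Cdh5, Cldn5 or Tie1, -0.26 and 1.67 in 1 and 4 with no endothelial UMI, and 0.92 in 3 with a fibroblast limit of 30.

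In the gate, 681 lower genes in comparison 3 became 437 (Pdgfra and Krt5 at 0), 425 (Cdh5 rule) and 1069 (5 UMIs a gene), 1887 lower in comparison 4 became 1244 without each highest cell, and 1300 higher in comparison 5 became 632, 695 (50 UMIs a gene) and 2039 (5 UMIs). In the core, higher and lower genes were 594 and 824, 647 and 843, 709 and 431, 1342 and 754, and 594 and 772. With 50 UMIs a gene they were 335 and 414, 232 and 435, 343 and 217, 874 and 322, and 202 and 397, as fewer genes are tested. With 5 UMIs they reached 1056 and 1630 in comparison 1, 1402 higher in 2, 1171 and 1010 in 3, 1350 lower in 4, and 1510 and 1165 in 5.

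Some list medians changed sign. In the gate, PDGF and Notch in comparison 1 became 0.33 (free RNA rule) and 0.02 (Cdh5 rule), lymphoid-tissue chemokines in 2 became 0.80 and 0.02, complement in 4 became -0.16, and MHC class II became -0.02 in 1 (Pdgfra and Krt5 at 0) and -0.38 and -0.16 in 2 (10% mitochondrial UMIs, 1000 UMIs a cell). In the core, the free RNA rule turned lymphoid-tissue chemokines (0.33) and NF-kB genes (0.29) in 2 and complement in 5 (0.43). TGF-beta genes in 1 became 0.13, 0.18 and 0.24, S phase in 5 became -0.02 and nerve receptors in 2 became -0.08. Among the genes printed for the core, weighting every cell equally turned the single-dose ratios of Cnfn (0.63), Krtdap (0.16), Nqo1 (0.31) and Slpi (1.42), Nqo1 in 3 (0.33), Inhba in 4 (-0.17), and Id4 (0.03) and S100a7l2 (-0.62) in 5. Slpi in 1 became 0.85 without its highest cell. The causes were not tested.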
